A study of Ovis aries with 2 samples.

Results

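The let-7 family comprises 8 of the 81 mature miRNAs listed in extracellular vesicles from uterine luminal fluid (ULF) of day 14 ewes, and its members were let-7a, let-7b, let-7c, let-7d, let-7e, let-7f, let-7g and let-7i. Members were taken by name, as every listed mature sequence whose first precursor is called let-7 followed by a letter. Listing itself needs a minimum number of copies in either library, so counts decided which let-7 miRNAs could be members. Among the listed miRNAs the choice by name used no counts, but it was made with earlier results of these data known. Vesicles were precipitated with ExoQuick-TC from flushed and filtered ULF of Rambouillet ewes that were either pregnant after mating with an intact ram or cyclic, both on day 14 after estrus. RNA from 4 ewes was pooled into 1 small RNA library per status, which gave 1 pregnant and 1 cyclic library. There was no replicate, so no spread between ewes was measured, no test was possible, and each ratio compares these libraries rather than the conditions. The precipitate holds vesicles of any cell that sheds them into the lumen.

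let-7 miRNAs are short RNAs that Drosha and Dicer cut from hairpin precursors and that guide Argonaute to messenger RNAs. They pair mainly through the seed, bases 2 to 8 of the mature strand, and in mammals they repress growth genes such as RAS genes and HMGA2. LIN28, a protein of embryonic and stem cells, blocks the maturation of let-7 precursors, and let-7 levels rise as tissues differentiate.

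The mature sequences are shown because the members differ by so few bases that reads can match several of them. They are the cattle miRBase sequences of the deposited table, written with T for U and 5′ to 3′, with the seed in capitals.
let-7a: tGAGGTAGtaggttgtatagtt
let-7b: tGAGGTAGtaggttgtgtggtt
let-7c: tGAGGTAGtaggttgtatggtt
let-7d: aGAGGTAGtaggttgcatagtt
let-7e: tGAGGTAGgaggttgtatagt
let-7f: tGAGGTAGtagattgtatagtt
let-7g: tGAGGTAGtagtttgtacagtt
let-7i: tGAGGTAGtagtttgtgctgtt

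All 8 members carried the same seed, and none of the 73 other listed mature miRNAs did. The same-seed miRNAs miR-98 and miR-202 were not listed at 10 or more copies in either library. Positions are counted from 1 at the 5′ end, with the base of let-7a first. let-7c differed from let-7a by A19G, let-7f by G12A and let-7e by T9G, and let-7e was also 1 base shorter, at 21 in place of 22 bases. let-7b differed by A17G and A19G, so that it lay 1 base from let-7c. let-7d differed by T1A and T16C, and let-7g by G12T and T18C. let-7i was the most distant from let-7a, with G12T, A17G, T18C and A19T. Of the 28 pairs of members, 4 differed at 1 position, and let-7d and let-7i differed at 6. Of the first 21 positions, 14 were equal in all 8 members.

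let-7a comes from 3 precursors in the table and let-7f from 2, whereas the other members have 1 each. In the sheep annotation ARS-UI_Ramb_v3.0, used for names and neighbours only, 7 of the 8 members had a gene of the same name. MIRLET7A and MIRLET7D were neighbours on chromosome 2, within the span of ZNF169, a zinc finger gene. MIRLET7C lay beside MIR99A on chromosome 1. MIRLET7F lay within the span of HUWE1, a ubiquitin ligase gene of chromosome X, and MIRLET7G within that of WDR82 on chromosome 19. MIRLET7B and MIRLET7I lay apart from each other on chromosome 3. let-7e had no gene of its name there.

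The pregnant library held 119605 reads, of which 2809 were counts of listed mature miRNAs, and the cyclic library held 94735 reads and 7921 such counts. The pregnant library was therefore the shallower one for miRNAs, and its intervals are wider. A count under 10 is listed as 0, so that an unlisted member can have up to 9 copies. As a check of the source, all 6 epithelial marker miRNAs were listed in the cyclic and 4 in the pregnant library, with 13.6% and 11.9% of the counts. Of 3 erythroid markers only miR-451 was listed (0.896% of cyclic and 0.427% of pregnant counts), of 3 leukocyte markers only miR-223 (0.707% of the cyclic counts, unlisted in the pregnant library), and none of the 6 early embryo markers or the liver marker miR-122. The part of these cells in the let-7 values was not tested.

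let-7 was a main component of the listed mature miRNA counts in both libraries. These counts were 2.35% of the reads of the pregnant and 8.36% of those of the cyclic library. Vesicles from pregnant ewes had 527 let-7 counts, 18.8% of all counts of mature miRNAs, with an exact Clopper-Pearson 95% interval of 17.3 to 20.3%. Vesicles from cyclic ewes had 1494, 18.9% (18.0 to 19.7%). These intervals cover counting error only, because there is 1 library per group. The reads carried no molecular identifier, so PCR copies count as separate molecules and the intervals can be too narrow. The shares lay within each other's intervals, and their ratio, pregnant over cyclic, was 0.995, with an exact conditional binomial 95% interval of 0.899 to 1.10.

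let-7a and let-7b led both libraries. let-7a, which has the sequence of the original let-7 of Caenorhabditis elegans, had 206 counts in pregnant and 512 in cyclic ewes, or 7.33% and 6.46% of the mature miRNA counts. let-7b had 176 and 499 counts, or 6.27% and 6.30%. They ranked first and second of the 54 miRNAs listed in the pregnant and of the 80 listed in the cyclic library. Next to them stood miR-23a in the pregnant library (159 counts) and miR-21 in the cyclic library (460 counts). let-7a and let-7b together made up 72.5% (68.5 to 76.3%) of the pregnant and 67.7% (65.2 to 70.0%) of the cyclic let-7 counts.

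The other members were several-fold lower. let-7f had 45 counts in pregnant and 152 in cyclic ewes (1.60% and 1.92%). let-7g had 40 and 127 counts (1.42% and 1.60%), and let-7c had 38 and 110 (1.35% and 1.39%). These 3 ranked between 19 and 27 in both libraries. let-7e had 22 and 53 counts (0.783% and 0.669%), at rank 37 and 36. let-7d had 25 counts and let-7i 16 in the cyclic library, 0.316% and 0.202%, and both were unlisted in the pregnant library, which allows each a share of up to 0.320% there.

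**Figure D1:**
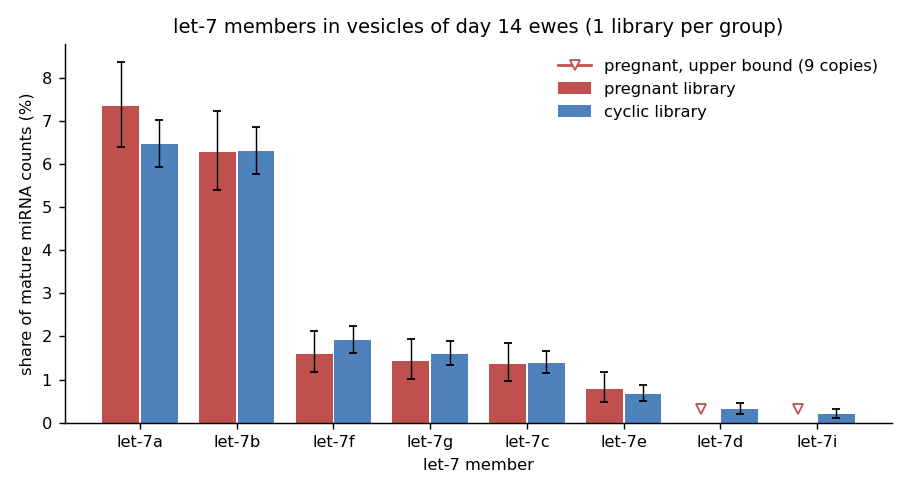
Share of mature miRNA counts (y axis, %) of each let-7 member (x axis) in the pregnant and the cyclic library. Bars are single pooled libraries, error bars are exact 95% intervals for counting error, and open triangles are the bound of 9 copies. let-7a and let-7b stand between 6.27% and 7.33% in both libraries, and the other members at 1.92% or below.

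By grouped counts the order of the members was let-7a, let-7b, let-7f, let-7g, let-7c and let-7e in both libraries, followed by let-7d and let-7i in the cyclic one. Not every step of that order was larger than counting error. let-7a exceeded let-7b by 1.17-fold (0.952 to 1.44) in pregnant and 1.03-fold (0.905 to 1.16) in cyclic ewes, so these neighbours could not be told apart. let-7b exceeded let-7f by 3.91-fold (2.81 to 5.55) and 3.28-fold (2.73 to 3.96), a clear step in both. let-7f, let-7g and let-7c could not be ranked among neighbours in either library, with neighbour ratios from 1.05 to 1.20 and intervals that included 1. let-7c exceeded let-7e by 2.08-fold (1.48 to 2.94) in the cyclic library and by 1.73-fold (0.996 to 3.07) in the pregnant library, where the interval just included 1. let-7e exceeded let-7d by 2.12-fold (1.29 to 3.56) in the cyclic library, and let-7d exceeded let-7i by 1.56-fold (0.802 to 3.13). In all, 1 of 5 neighbour steps in the pregnant and 3 of 7 in the cyclic library were beyond counting error.

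The part of the counts assigned to 1 precursor only differed widely within the family. Every count of let-7e, let-7g and let-7i came from reads assigned to 1 precursor only, and so did 24 of the 25 cyclic let-7d counts. let-7b came next, with 140 of 176 counts (79.5%, 72.8 to 85.2%) in the pregnant and 412 of 499 (82.6%, 78.9 to 85.8%) in the cyclic library. let-7c had 5 of 38 (13.2%, 4.41 to 28.1%) and 24 of 110 (21.8%, 14.5 to 30.7%). let-7a had 24 of 206 (11.7%, 7.61 to 16.8%) and 35 of 512 (6.84%, 4.81 to 9.38%), and let-7f 1 of 45 and 0 of 152. let-7a and let-7f have several precursors for 1 mature sequence, so a read of either can be shared without matching another member. let-7c has 1 precursor.

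The members that shared reads were not simply those with the closest sequences. let-7e and let-7b each lay 1 base from their nearest member, let-7a and let-7c respectively. let-7e shared no read in either library, although its difference from let-7a is a single base at position 9 and the shorter end, whereas let-7b shared 36 and 87. let-7c, with 1 precursor, lay 1 base from both let-7a and let-7b and shared 33 of its 38 and 86 of its 110 counts. Across the family, 44.0% (39.7 to 48.4%) of the pregnant and 46.3% (43.7 to 48.8%) of the cyclic counts were assigned to 1 precursor only, against 81.9% and 80.8% of the counts of the other miRNAs. let-7 thus held 41.7% of all shared reads of pregnant ewes and 39.4% of those of cyclic ewes, above its 18.8% and 18.9% of the counts.

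**Figure D2:**
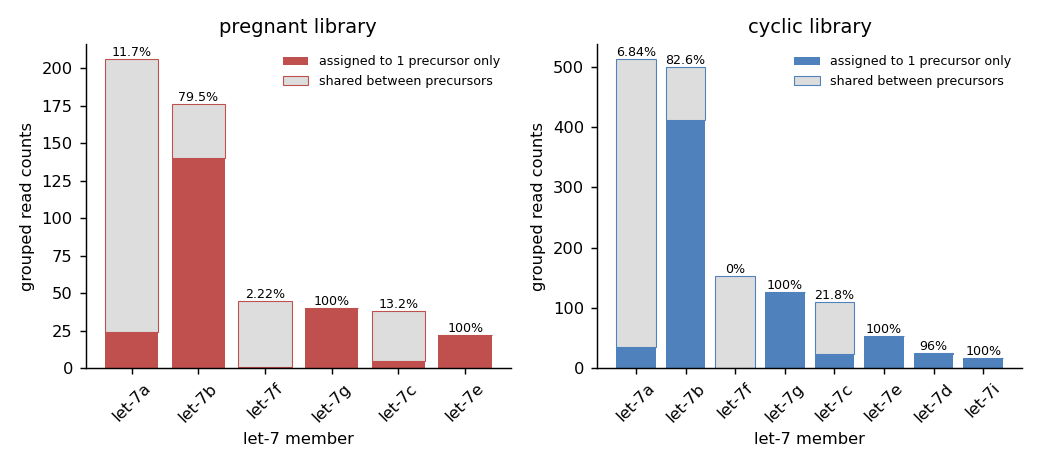
Grouped read counts (y axis) of the let-7 members listed in each library (x axis), divided into reads assigned to 1 precursor only (filled) and reads shared between precursors (grey), with the percentage assigned to 1 precursor above each bar. let-7a, let-7c and let-7f are mostly shared in both libraries, whereas let-7e and let-7g stand at 100%.

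The sum of the family is less exposed to this than its division among members. With single-precursor reads alone, the family held 232 of 2101 such reads in the pregnant library, a share of 11.0%, and 691 of 5882, or 11.7%, in the cyclic library. The ratio of these shares was 0.940 (0.807 to 1.09). The family share thus fell on these reads, whereas the ratio stayed within the interval of that from grouped counts. On these reads the order of the members was another one, but reads that match several precursors of the same member are left out too. let-7a has 3 precursors and let-7f 2, so this order does not rank the members by abundance. let-7b led the family, with 60.3% of the pregnant and 59.6% of the cyclic single-precursor let-7 reads, and let-7g followed with 17.2% and 18.4%. let-7a had 10.3% and 5.07%, let-7e 9.48% and 7.67%, and let-7c 2.16% and 3.47%.

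Hardly any let-7 read matched the full reference sequence exactly. There was no exact match among the 527 pregnant let-7 counts (95% interval 0 to 0.698%) and 1 among the 1494 cyclic ones, a let-7b read (0.067%, 0.002 to 0.372%). Of the counts of the other 73 miRNAs, 13.5% from pregnant and 12.1% from cyclic ewes were exact. The remaining reads were length or mutant variants, which made up most reads of the mature 5′ class in the reports of both libraries (length variants 19.9% and 20.3%, mutant variants 74.0% and 74.3%). A feature shared by the 8 members, and noticed after the values were seen, was a T as the last base. Of the 28 other miRNAs that end in T, 1 had an exact match, namely miR-92a, and 0.499% of their counts were exact. Of the 18 that end in A, 16 had exact matches (45.5% of counts), of the 9 that end in C 3 had (10.7%), and of the 18 that end in G 2 had (3.59%). let-7 was therefore not alone in this among miRNAs with the same last base. These shares sum both libraries, and what gives rise to them was not tested.

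On grouped counts scaled by mature miRNA counts, no let-7 member passed both criteria for a call, a ratio of at least 2-fold and an interval excluding 1. Among all 81 listed miRNAs 8.64% did, with 6.17% higher and 2.47% lower in the pregnant library. let-7a had a ratio of 1.13 (0.960 to 1.34) and let-7e one of 1.17 (0.678 to 1.96). let-7b was closest to equality at 0.995 (0.833 to 1.18), followed by let-7c at 0.974 (0.655 to 1.42). let-7g had a ratio of 0.888 (0.606 to 1.28) and let-7f one of 0.835 (0.585 to 1.17). The members thus had point estimates on both sides of 1, and every interval included 1. All 6 intervals also exclude a 2-fold difference in either direction for these libraries, that of let-7e only narrowly.

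let-7d and let-7i were listed for the cyclic library only, as were 33.3% of the 81 miRNAs. At their cyclic share, let-7d would have 8.87 and let-7i 5.67 copies in the pregnant library, under the minimum of 10 in both cases. With 9 copies as the bound, the ratio of let-7d was at most 1.02 (interval at this bound 0.417 to 2.25) and that of let-7i at most 1.59 (0.618 to 3.81). As the pregnant values can lie anywhere from 0 to 9 copies, the direction of neither could be told.

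**Figure D3:**
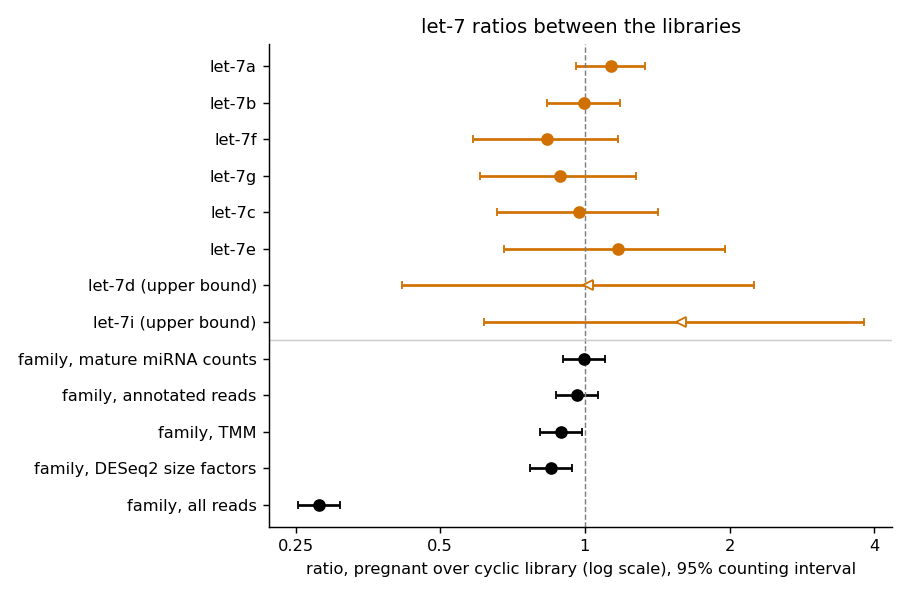
Ratio, pregnant over cyclic (x axis, log scale) with 95% intervals for counting error, for each let-7 member scaled by mature miRNA counts (orange) and for the summed family under 5 scalings (black). Open symbols are upper bounds at 9 copies. Every member's interval includes 1, and the family moves from 0.995 to 0.279 when all reads of the library are the denominator.

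The direction of the family rests on the denominator. Over all reads of the library, let-7 made up 0.441% (0.404 to 0.480%) for pregnant and 1.58% (1.50 to 1.66%) for cyclic ewes, which gave a ratio of 0.279 (0.253 to 0.309). On that scale 7 of the 8 members were called lower by both criteria, as were 71.6% of the 81 miRNAs in total. let-7i was at most 0.446 (0.174 to 1.07) and missed the call by its interval. edgeR's TMM gave a family ratio of 0.893 (0.807 to 0.987) and DESeq2's size factors one of 0.851 (0.769 to 0.941). Both intervals lay below 1, and no member was called under either scaling. Both scalings used only the miRNAs that both libraries list. How far that choice moves these ratios was not tested, and no lower let-7 share is concluded from them.

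TMM and DESeq2 were thus scaled to the miRNAs listed in both libraries, not to all listed miRNAs. Over the 53 miRNAs that both libraries list, the median log2 ratio was 0.22, and 60.4% had a ratio above 1. Because counts under the minimum number of copies are not listed, a miRNA with few cyclic counts could be listed in the shallower pregnant library only at a ratio above 1. This can raise both values, by an amount that was not tested. The log2 shift applied by DESeq2's size factors, -0.22, was that median with its sign changed. How far the minimum moves the family ratios under TMM and DESeq2 was not tested. The 6 let-7 members among the 53 had a median of -0.02 (range -0.26 to 0.23). Of these 6, 2 had a ratio above 1, or 1 with DESeq2's size factors. Without a fold criterion, 28.3% of the 53 had an interval excluding 1, and none of the let-7 members did.

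**Figure D4:**
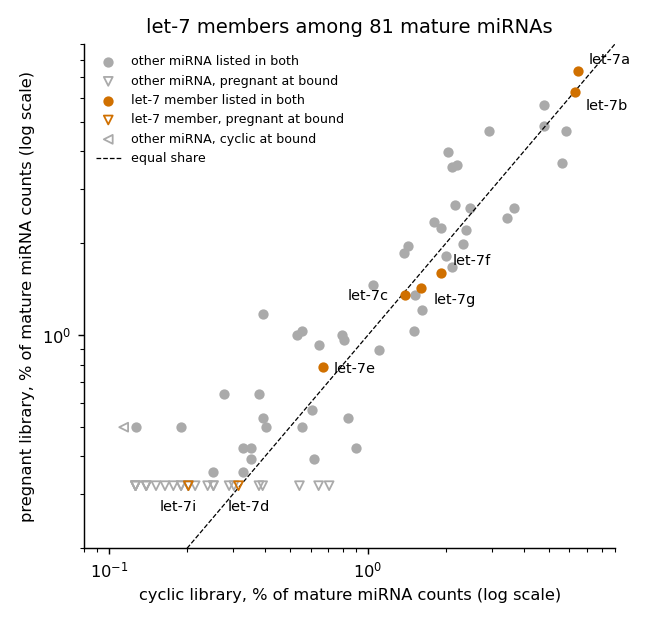
Share of mature miRNA counts in the pregnant library (y axis, %, log scale) against that in the cyclic library (x axis, %, log scale) for the 81 mature miRNAs, with let-7 members in orange and unlisted values at the bound of 9 copies. The 6 members listed in both lie along the line of equal share, with log2 ratios from -0.26 to 0.23. All 53 range from -1.07 for miR-451 (12 pregnant and 71 cyclic counts) to 1.98 for miR-99b (14 and 10). Other miRNAs also lie near the line, such as miR-26a at 0.02.

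The composition of the family, which does not depend on the scaling, differed little on grouped counts. Single-precursor reads gave another value for let-7a, but they are a minor part of its counts. In the grouped counts let-7d and let-7i enter the pregnant sum as 0. let-7a took 39.1% (34.9 to 43.4%) of the pregnant and 34.3% (31.9 to 36.7%) of the cyclic let-7 counts, and let-7b took 33.4% of each (29.4 to 37.6% and 31.0 to 35.9%). let-7f took 8.54% and 10.2%, let-7g 7.59% and 8.50%, let-7c 7.21% and 7.36%, and let-7e 4.17% and 3.55%. The ratio of these shares ran from 0.839 (0.588 to 1.18) for let-7f to 1.18 (0.682 to 1.97) for let-7e, and no interval excluded 1. The ratio for let-7a was 1.14 (0.966 to 1.34). Among single-precursor let-7 reads, let-7a took 10.3% of the 232 pregnant and 5.07% of the 691 cyclic reads. That ratio of 2.04 (1.16 to 3.53) met both criteria for a call, but it rests on 24 and 35 reads. The ratios of these shares were 1.01 (0.829 to 1.23) for let-7b, 0.938 (0.640 to 1.35) for let-7g, 1.24 (0.716 to 2.07) for let-7e and 0.621 (0.185 to 1.66) for let-7c. Scaled instead by the single-precursor reads of all mature miRNAs, let-7a had a ratio of 1.92 (1.09 to 3.32), which lay under 2-fold.

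Several let-7 genes of mammals are transcribed together with miRNAs of other families. The listed partners had higher point estimates than their let-7 members, but the intervals overlapped, so no departure from the let-7 ratios is concluded. miR-99a, a partner of let-7c, had 11 counts in pregnant and 28 in cyclic ewes, at a ratio of 1.11 (0.498 to 2.30), beside 0.974 for let-7c. let-7c exceeded it by 3.45-fold (1.73 to 7.49) and 3.93-fold (2.58 to 6.18). miR-125b, which stands in clusters with let-7c and with a let-7a gene, had 66 and 142 counts, a ratio of 1.31 (0.964 to 1.77).
The partners of let-7e are miR-99b and miR-125a. miR-99b had 14 and 10 counts and was higher in the pregnant library at 3.95 (1.63 to 9.93), although at 10 cyclic copies it could not be listed in both libraries with a lower ratio than 2-fold. miR-125a had 112 and 161 counts and a ratio of 1.96 (1.53 to 2.51), just under the fold criterion. let-7e itself, at 1.17, exceeded miR-99b by 1.57-fold (0.769 to 3.32) in the pregnant and by 5.30-fold (2.67 to 11.7) in the cyclic library, and reached 0.196 (0.118 to 0.312) and 0.329 (0.237 to 0.452) of the miR-125a counts. Of the 6 partners 1 was higher, none was lower, 3 did not pass the criteria, and miR-100 and miR-98 were not listed, beside 6.17% higher and 2.47% lower of all 81 miRNAs.
let-7a, let-7d and let-7f share a cluster in mammals, as do let-7a and let-7b. let-7d, the neighbour of let-7a in the sheep annotation, was 20.5-fold (13.7 to 31.9) below let-7a and 6.08-fold (3.97 to 9.69) below let-7f in the cyclic library. let-7a also has other genes, so these counts do not compare the transcripts of 1 cluster.

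Among the 19 other miRNAs with at least 50 counts in both libraries, those with a ratio nearest to the summed let-7 counts were miR-26a (136 and 378 counts, ratio 1.01, 0.828 to 1.24), miR-30d (73 and 197, 1.04, 0.788 to 1.37) and miR-30b (62 and 189, 0.925, 0.683 to 1.24). Their log2 ratios lay within 0.03, 0.07 and 0.10 of that of let-7, a likeness over only 2 libraries.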

How the data were processed

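Ion Torrent reads of 1 pregnant and 1 cyclic library, each of RNA pooled from 4 ewes, were processed by the authors in CLC Genomics Workbench, with its small RNA workflow (version: not given in the sources used here). Sequences of 15 to 55 bp were kept with fewer than 2 mismatches per the methods and at least 10 copies, and were grouped by the cattle mature miRNAs of miRBase release 19. The deposited values are raw read counts of each mature miRNA, together with the number of those reads that matched exactly and the number with a single precursor. Other deposited values are the library totals of the annotation reports, on whose pages reads with 2 mismatches are also counted. The columns of fold changes and differences between libraries were not used, nor were 6 columns belonging to none of the mapped samples.

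Shares, ratios and their exact intervals were computed with SciPy 1.17.1, NumPy 2.4.6 and pandas 2.3.3 in Python 3.11.15, and plotted with matplotlib 3.10.9. No count model was fitted, since each group has 1 library. A ratio was called at 2-fold or more with an interval excluding 1. Interval code was tested on simulated data. Scalings with edgeR 4.0.16 (TMM) and DESeq2 1.42.0 (size factors), in R 4.3.3, used the 53 miRNAs listed in both libraries, and the other alternatives are given in the closing section. Named were the members, their fixed lists of cluster partners and same-seed miRNAs, the marker lists, the 3 miRNAs of the nearest ratio, and those next to let-7 among the 5 most abundant. miR-92a was named after its values were seen. Members and lists were chosen with earlier results of these data known. The RT-qPCR of the study, by which the paper reports let-7a and let-7d in vesicles of cyclic and pregnant ewes, was not analysed here.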

Additional observations from a re-analysis of the deposited data

How the results depend on the processing

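The ratio of the summed let-7 counts was 0.995 as reported and moved beyond its own interval to 0.279 over all reads of the library, 0.893 with TMM, 0.851 with DESeq2's size factors, and 0.892 (0.659 to 1.19) over let-7e, let-7g and let-7i alone, the members with every read assigned to 1 precursor, an alternative chosen after the data were examined. The other 5 members gave 1.01. It stayed within that interval with annotated reads (0.963), totals without let-7 (0.993), single-precursor reads (0.940), minimums of 20 (1.01) and 50 copies (1.02), without let-7a (0.922) or let-7b (0.995), with unlisted members at 9 copies (1.03), and in the second deposited table, whose counts were equal for the 81 miRNAs. Between the libraries, the number of members called was 0 under every scaling, count and minimum tried except all reads, where it was 7. Within the family, the share of let-7a in single-precursor let-7 reads also met both criteria, at 2.04 (1.16 to 3.53). The TMM and DESeq2 factors used only miRNAs listed in both libraries, and how far this moves the family ratio was not tested. The let-7 share of the pregnant and cyclic library was 0.441% and 1.58% over all reads, 11.0% and 11.7% over single-precursor reads, and 0.0% and 0.129% over exact matches, by construction of these denominators and of the near absence of exact let-7 reads. With 0 and 1 exact reads, a family ratio, an order and within-family shares from exact matches could not be computed. No paired analysis was possible because each group has 1 library, and no replicate could be left out. The lower number of mature miRNA counts in the pregnant library, not its number of reads, limits let-7d and let-7i. At equal shares of these counts, their expected copies lie under the minimum.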
